A study of Danio rerio with 4 samples.

Results

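Cxcl12 chemokines and their receptors form a signalling system that guides migrating cells in the vertebrate embryo. The genes described here are the 5 whose symbols in the deposited gene table are cxcl12a, cxcl12b, cxcr4a, cxcr4b and ackr3b, out of 20390 genes listed. They were chosen by name, as were the gene lists below, with earlier results of these data known. All 5 were among the 16754 genes that passed the filter on low values (at least 10 normalised reads in at least 2 libraries). Zebrafish keep paralogous copies of each part of the system. The ligands Cxcl12a and Cxcl12b are secreted proteins that bind the G protein-coupled receptors Cxcr4a and Cxcr4b, and signalling through these receptors steers cells towards the ligand. Ackr3b, also called Cxcr7b, binds Cxcl12, does not signal through G proteins in the usual way, and carries the ligand into the cell to be broken down, so that it shapes where ligand remains. In zebrafish, Cxcr4b and Cxcl12a are best known for guiding primordial germ cells and the lateral line primordium, and Cxcr4a and Cxcl12b for holding endoderm to the mesoderm.

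RNA was sequenced from whole zebrafish embryos at the 6-somite stage, with 2 libraries from uninjected embryos and 2 from embryos that had received Cre at the one-cell stage. Both groups carried the transgene bns298. In it the heat-inducible hsp70l promoter is separated by a loxP-STOP-loxP cassette, which Cre can remove, from npas4l, a transcription factor gene needed for blood and vessel formation; a GGGGGLSRS linker and P2A join npas4l to the reporter mCherry. Both groups were raised at 28 °C and heat-shocked at 37 °C for 1 h, so neither is free of the transgene or of heat shock, and injected embryos without the transgene are not analysed here. Effects of injection, Cre, npas4l, clutch and exact stage on any difference below therefore cannot be told apart. The labels do not say whether replicates were separate clutches or how many embryos were pooled, and the promoter acts in the whole embryo on heat shock. In whole embryos, fewer cells of a type and less RNA per cell cannot be told apart either.

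The deposited values are whole numbers per gene that sum to between 8933474 and 9861419 per library, and are called normalised reads here. Transcripts of npas4l, endogenous and transgenic together, stood at 370 and 279 normalised reads without and at 710 and 808 with Cre, so the labels and the targeted gene go together. Markers of muscle, neural plate, epidermis, notochord and blood and vessel precursors were all detected in these whole embryos. Genes annotated as mitochondrial ribosomal RNA took 12.3% and 16.4% of the totals without and 12% and 16.1% with Cre, so that replicate 2 held the higher share in each group.

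Among the 5 genes, ackr3b was the only one that passed the test across all genes, and it was lower in Cre-injected embryos. The scavenger receptor gene (ENSDARG00000058179, chromosome 6, 15751982 to 15757867 on the minus strand, GRCz11) counted 672 and 649 normalised reads per uninjected library, against 432 and 339 per Cre-injected library. Both Cre-injected libraries lay below both uninjected libraries, as was so for 28.8% of all tested genes; for a further 28.0% both lay above. The group values were 660.5 ± 16.3 and 385.5 ± 65.8 (SD, n = 2). The log2 fold change was -0.79 ± 0.15 (SE; 95% interval -1.10 to -0.47) on the log2(value + 1) scale, with adjusted p = 0.00491 by limma with Benjamini-Hochberg adjustment over all genes. Transcript of the scavenger receptor in Cre-injected embryos was thus 58% of the uninjected level. In the same fit 12.5% of all genes passed the threshold of 0.05, made up of 6.19% lower and 6.35% higher, so 1 call among 5 genes is near the background share. The fall in ackr3b was of the same size when either uninjected library was left out, but no longer passed the test: the log2 fold change was -0.76 without uninjected replicate 1 (adjusted p = 0.0957 by limma) and -0.81 without uninjected replicate 2 (adjusted p = 0.0793 by limma). It passed the test when either Cre-injected library was dropped, with log2 fold changes of -0.96 (first) and -0.61 (second). More of all genes passed in these fits than with all libraries, and fewer passed in the fits without an uninjected library.

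**Figure D1:**
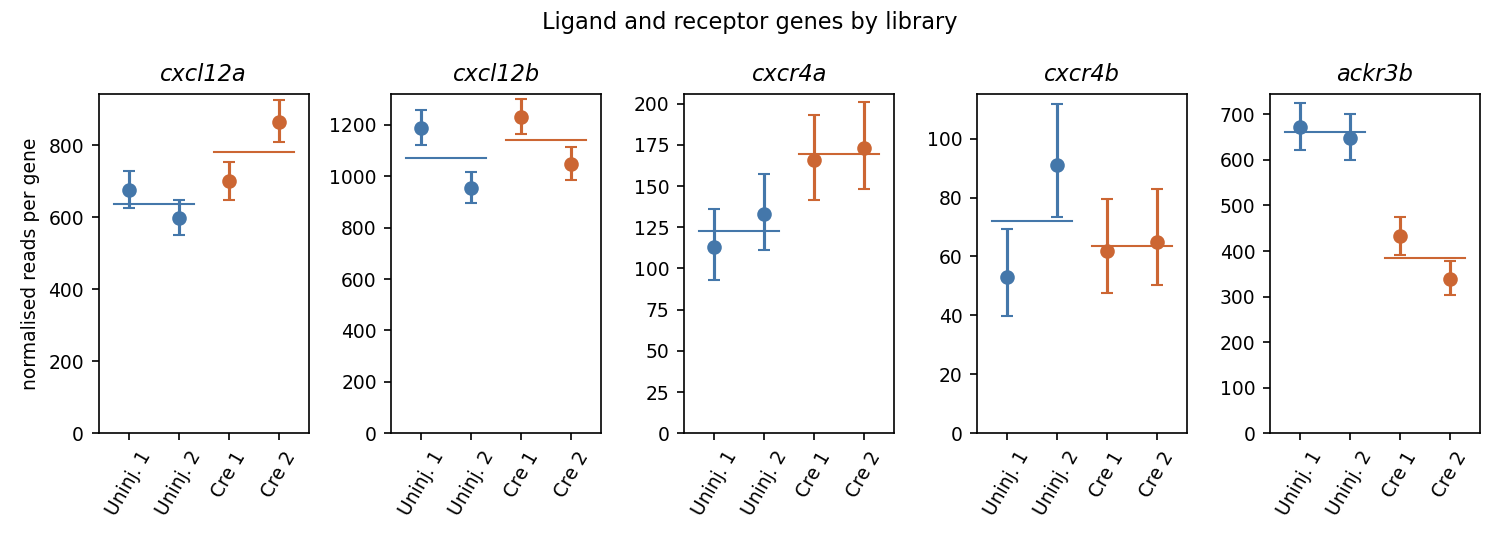
Normalised reads per gene (vertical axes, from 0) for the 5 ligand and receptor genes in each of the 4 libraries; points are the deposited values, bars are 95% exact Poisson intervals for counting error only, and horizontal lines are group means. For ackr3b the Cre-injected libraries, at 432 and 339, lie below the uninjected libraries, at 672 and 649.

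Transcripts of the signalling receptor gene cxcr4a were higher in both Cre-injected libraries, without passing the test. This gene (ENSDARG00000057633, chromosome 6, 12922002 to 12923727 on the plus strand) counted 113 and 133 normalised reads in embryos without Cre, and 166 and 173 in those with it. The groups did not overlap, which was so for 3 of the 5 members and for 56.7% of all tested genes in either direction. The log2 fold change of 0.46 ± 0.19 (SE) had a 95% interval of 0.05 to 0.87 and adjusted p = 0.13 by limma. The interval is not adjusted for the number of genes, and 28.4% of all tested genes had an unadjusted p under 0.05 by limma. The range over the fits that left out 1 library was 0.35 to 0.58, and none of them passed the test.

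The other signalling receptor gene, cxcr4b (ENSDARG00000041959, chromosome 9, 10692905 to 10694930 on the plus strand), rested on few reads. Embryos without Cre gave values of 53 and 91, those with it 62 and 65. Both Cre-injected libraries lay between the uninjected ones, which differed from each other by more than counting error: the 95% exact Poisson intervals of 53 and 91 reads, 39.7 to 69.3 and 73.3 to 111.7, do not overlap. The difference was -0.13 ± 0.29 (SE) on the log2 scale (adjusted p = 0.81 by limma), and the 95% interval of -0.76 to 0.50 leaves room for changes in either direction. The sign rests on 1 library: leaving out uninjected replicate 2 gave 0.26 and leaving out uninjected replicate 1 gave -0.51.

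Neither ligand gene passed the test. For cxcl12a (ENSDARG00000037116, chromosome 13, 30804367 to 30819715 on the plus strand), which encodes the ligand that guides germ cells, the values were 674 and 597 normalised reads without Cre, against 699 and 865 with it. Both Cre-injected libraries lay above both uninjected ones, the lower of them by little. The log2 fold change was 0.29 ± 0.14 (SE; 95% interval -0.01 to 0.60; adjusted p = 0.189 by limma). It passed the test only when Cre-injected replicate 1 was left out (0.45), a fit in which more of all genes passed than with all libraries.

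The second ligand gene, cxcl12b (ENSDARG00000055100, chromosome 22, 26929554 to 26945493 on the minus strand), had 1189 and 954 normalised reads without and 1231 and 1048 with Cre. Each group held a higher and a lower library and the groups overlapped. With Cre it moved by 0.09 ± 0.14 (SE) on the log2 scale (adjusted p = 0.698 by limma). The 95% interval, -0.20 to 0.39, does not contain a fall as large as that of ackr3b. Its sign changed when uninjected replicate 2 was dropped (-0.066) and when Cre-injected replicate 1 was (-0.023).

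**Figure D2:**
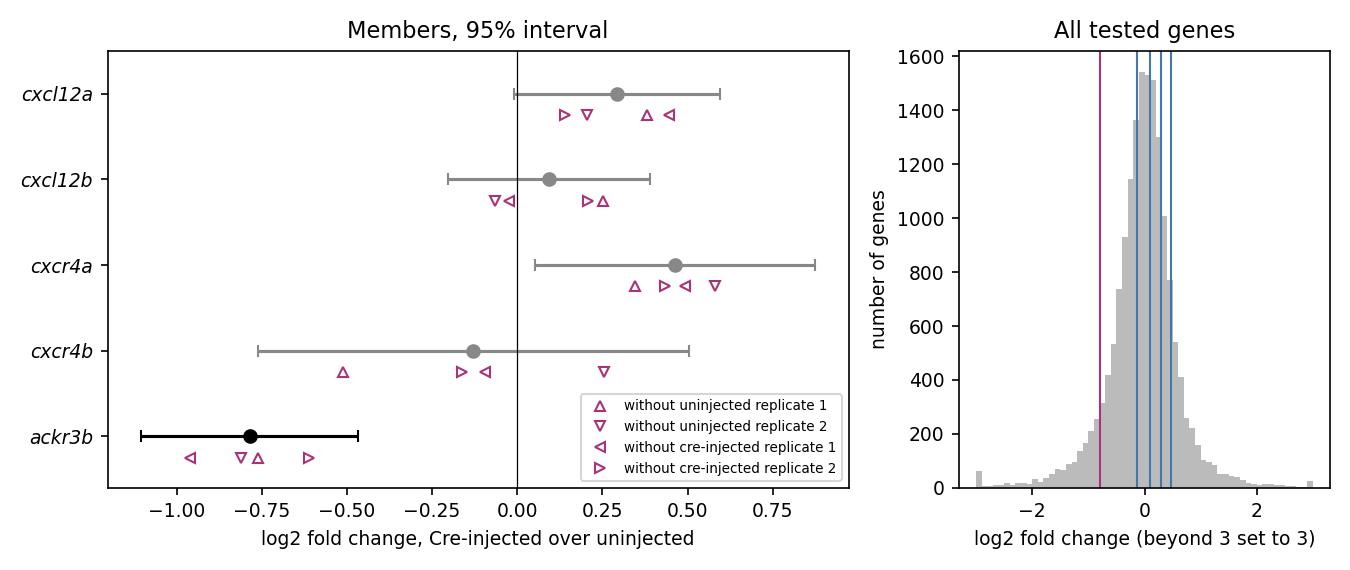
Left, log2 fold change of each member, Cre-injected over uninjected, with its 95% interval (horizontal bars; black, adjusted p under 0.05; grey, not) and, as open triangles below it, the value with each library left out. Right, the number of tested genes by log2 fold change, with ackr3b (-0.79) as a purple line and the other 4 members as blue lines between -0.13 and 0.46.

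In the distribution of fold changes over all tested genes, 8.68% lay at or below ackr3b, and 14.8% lay at or above cxcr4a. The values of cxcl12a, cxcl12b and cxcr4b lay nearer the middle, with 24.4%, 41.5% and 61.4% of genes at or above them.

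Ratios between members within a library do not depend on how libraries were scaled to each other. Gene lengths are not corrected for in them, so only their change between libraries can be read. For every 1000 reads of the 2 ligand genes together, ackr3b had 361 and 418 reads without Cre, but 224 and 177 with it. For every read of cxcr4a and cxcr4b together there were 4.05 and 2.90 reads of ackr3b without and 1.89 and 1.42 with Cre. Scavenger receptor transcript was thus lower against both ligand and signalling receptor transcript in each Cre-injected library.

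All 10 pairs of members were compared by their log2 ratio in each library. In 5 pairs the groups did not overlap, and these were the 4 pairs that contain ackr3b and the pair of cxcr4a and cxcr4b. The 4 pairs share the same ackr3b values, so they are not separate observations. Of single tested genes 56.7% did not overlap, and the share among pairs of other genes was not counted. The log2 ratio of cxcr4a to ackr3b was -2.56 and -2.28 without Cre but -1.37 and -0.97 with it, a difference of 1.25. The ratio of cxcl12a to ackr3b differed by 1.08, that of cxcl12b to ackr3b by 0.88 and that of cxcr4b to ackr3b by 0.66. Of these pairs, cxcr4b to ackr3b had the closest groups, with log2 ratios of -2.82 in uninjected replicate 2 and -2.78 in Cre-injected replicate 1. By the two-sided exact permutation test over libraries, each of the 5 pairs gave p = 0.333 (adjusted p = 0.667 over the 10 pairs), which is the smallest p that 2 against 2 libraries allow. No difference between members was therefore shown by that test.

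**Figure D3:**
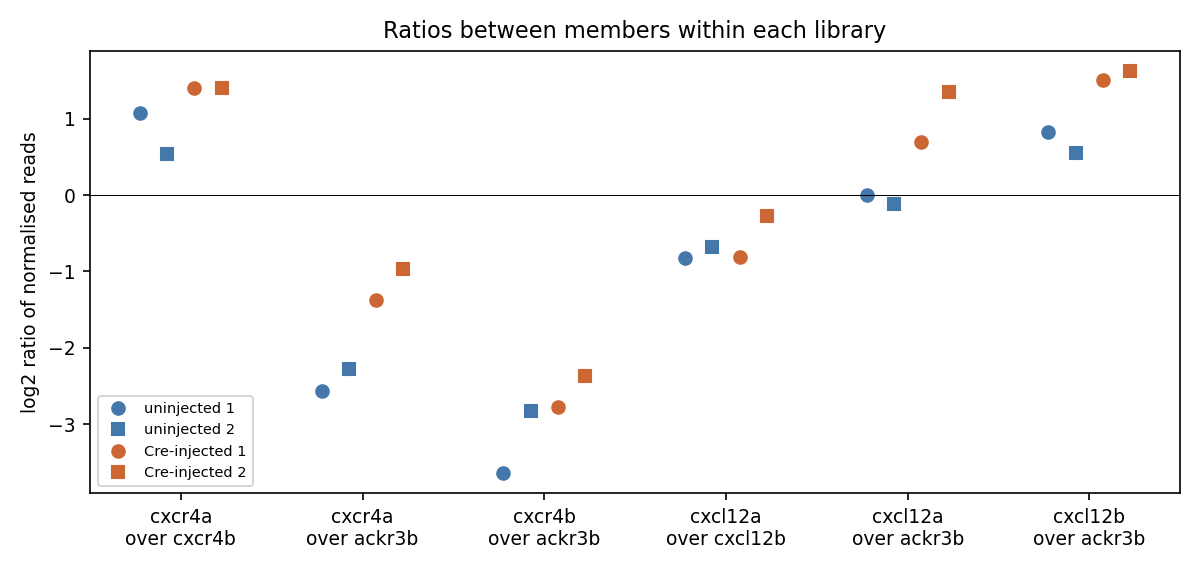
Log2 ratio of normalised reads (vertical axis) for 6 of the 10 pairs of members in each library; circles are replicate 1 and squares replicate 2, blue uninjected and orange Cre-injected. In the 4 pairs with ackr3b the orange points lie above the blue ones, as they do for cxcr4a over cxcr4b, while for cxcl12a over cxcl12b they overlap.

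Shares of reads within each paralogous pair were compared between libraries. Of the reads of cxcr4a and cxcr4b, cxcr4a took 68.1% (95% Wilson interval 60.6% to 74.7%) and 59.4% (52.8% to 65.6%) in the uninjected libraries. In the Cre-injected libraries its share was 72.8% (66.7% to 78.2%) and 72.7% (66.7% to 78.0%). The intervals, which cover counting error only, overlap for uninjected replicate 1 and both Cre-injected libraries. Of the ligand reads, cxcl12b took 63.8% and 61.5% without and 63.8% and 54.8% with Cre, so that only Cre-injected replicate 2 stood lower.

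The paralog of ackr3b, ackr3a, is not one of the 5 genes and belongs to the list of other chemokine genes described below. Its reads were few, at 32 and 28 without Cre and 20 and 16 with it. The groups did not overlap, but its log2 fold change of -0.71 ± 0.39 (SE) did not pass the test (adjusted p = 0.254 by limma). Of the reads of both genes, ackr3b took 95.5%, 95.9%, 95.6% and 95.5% in the 4 libraries in the order uninjected 1, uninjected 2, Cre-injected 1 and Cre-injected 2. With so few reads of ackr3a this share can move little, and its 95% Wilson intervals reach from 92.8% to 97.2% in Cre-injected replicate 2.

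No other gene of the table overlaps any of the 5 genes in position. The 2 nearest listed genes on each side of each member numbered 16 that were tested, and 3 of them passed the test, where 12.5% of all genes did. The gene nearest to ackr3b, iqca1, lies 4780 bases away on the plus strand and had 49 and 38 reads without and 53 and 36 with Cre (adjusted p = 0.979 by limma). The homeobox gene gbx2, the next on that side, had a log2 fold change of 0.35 (adjusted p = 0.291 by limma). On the other side trim63a, a muscle ubiquitin ligase gene in mammals, fell from 11 and 13 to 0 and 1 reads (adjusted p = 0.0479 by limma). It passed the filter on low values only through the uninjected libraries, so it could only be lower. The other neighbours that passed were hnmt, 547025 bases from cxcr4b, which fell (-1.19), and ercc6, 54438 bases from cxcl12a, which rose (0.46). The genes thsd7ba and dars, nearer to cxcr4b at 160314 and 4108 bases, did not pass. The calls of trim63a and ercc6 ended without either uninjected library, and that of hnmt without uninjected replicate 2 (adjusted p = 0.163 by limma). That of trim63a also ended with a pseudocount of 0.5 (adjusted p = 0.064 by limma) and that of ercc6 with scaling by library total (adjusted p = 0.0704 by limma) and with equal totals without mitochondrial and ribosomal RNA genes (adjusted p = 0.0542 by limma).

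The genes whose values followed a member most closely over the 4 libraries were found by Euclidean distance between centred log2(value + 1) values, among 10071 well-measured named genes. For ackr3b they were sh3d19, tmem251 and uqcr10, at log2 fold changes of -0.80, -0.75 and -0.83. The nearest to cxcr4a were nxt2, rdh10b and ccnl1a, to cxcl12a ankle2, znhit1 and tax1bp1b, and to cxcl12b klhl20, arl6ip4 and dhcr7. With 4 libraries such likeness is weak, and 173 genes lay within a distance of 0.25 of ackr3b and 1113 within that of cxcl12a. The nearest to cxcr4b were tradd, adra1d and mt-atp8, and only 43 genes lay within 0.25 of it.

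The signalling route below Cxcr4 was described from a list of its genes. Cxcr4 signals through Gi proteins, whose alpha and beta-gamma subunits act on lipid kinases and Rac to drive cell movement. Of 39 tested genes of this list, 1 rose, 2 fell and 36 passed in neither direction, where 12.5% of all genes passed, and the difference between these shares was not tested. The fallen genes encode G protein gamma subunits: gng5 went from 253 and 253 to 147 and 143 normalised reads (-0.80 ± 0.17 (SE) on the log2 scale; adjusted p = 0.00878 by limma) and gng2 from 95 and 97 to 60 and 44 (-0.89, adjusted p = 0.0407 by limma). The alpha subunit gene gna12a rose from 425 and 348 to 599 and 534 (0.56, adjusted p = 0.0283 by limma). The inhibitory alpha genes, named after their values were seen, did not pass, with log2 fold changes of 0.38 for gnai1, -0.04 for gnai2a, 0.08 for gnai2b and 0.62 for gnai3. The nearest to the threshold was gnaia, with 1481 and 1432 normalised reads without and 1139 and 1151 with Cre (-0.35, adjusted p = 0.0578 by limma), and it passed with a minimum of 50 reads (adjusted p = 0.0484 by limma) and without either Cre-injected library. The list's median was -0.08, beside 0 over all genes tested. All of the list's calls ended without either uninjected library, and more members passed without either Cre-injected library. Calls over all genes moved the same way, with fewer in the former fits and more in the latter. The call of gng2 also ended without Cre-injected replicate 2 (adjusted p = 0.0873 by limma) and with non-robust shrinkage (adjusted p = 0.0571 by limma), and that of gna12a with scaling by library total (adjusted p = 0.0552 by limma).

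Among 28 tested genes for receptor desensitisation and ligand processing, 1 rose and 1 fell, where 6.35% and 6.19% of all genes did. The G protein-coupled receptor kinase gene grk3, whose mammalian product phosphorylates CXCR4, rose from 896 and 872 to 1275 and 1142 normalised reads (0.45 ± 0.12 (SE) on the log2 scale; adjusted p = 0.0265 by limma). The gene mif, whose mammalian product is another ligand of CXCR4, fell from 67 and 74 to 35 and 34 (-1.01, adjusted p = 0.0355 by limma). The matrix protease gene mmp2, whose mammalian product can cleave CXCL12, had 612 and 627 reads without and 1058 and 736 with Cre (0.51 on the log2 scale, adjusted p = 0.0559 by limma). It passed with no filter (adjusted p = 0.0371 by limma), with the replicate block (adjusted p = 0.031 by limma) and without Cre-injected replicate 2 (0.77), but stood at 0.25 without Cre-injected replicate 1 and did not pass. The arrestin genes arrb2a and arrb2b, for proteins that uncouple and internalise such receptors, showed log2 fold changes of 0.0017 for the first, a sign that turned with scaling by library total (-0.014), (adjusted p = 0.998 by limma) and -0.18 for the second (adjusted p = 0.374 by limma). Their values were named after they were seen. The list's median was -0.03. It had fewer calls without either uninjected library and more without either Cre-injected library, as was so over all genes tested. The calls of grk3 and mif ended without either uninjected library, and that of grk3 with scaling by library total (adjusted p = 0.0674 by limma).

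Other chemokine and chemokine receptor genes numbered 51 in the list, of which 15 symbols matched the table and 8 genes were tested; nothing is said here of the unmatched ones. The chemokine gene cxcl18b rose, from 3 and 6 to 26 and 20 normalised reads (2.17 ± 0.59 (SE) on the log2 scale; adjusted p = 0.0325 by limma), and no other passed, where 12.5% of all genes did. The call ended when any 1 of the 4 libraries was left out, with adjusted p from 0.0525 to 0.179 by limma. Since cxcl18b passed the filter on low values only through the Cre-injected libraries, it could only be higher. The chemokine gene cxcl14 had 403 and 389 reads without and 214 and 384 with Cre, so that Cre-injected replicate 1 alone was low. For cxcr5, in mammals a chemokine receptor gene of B cells, the values were 12 and 18 and then 5 and 5 (adjusted p = 0.16 by limma).

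**Figure D4:**
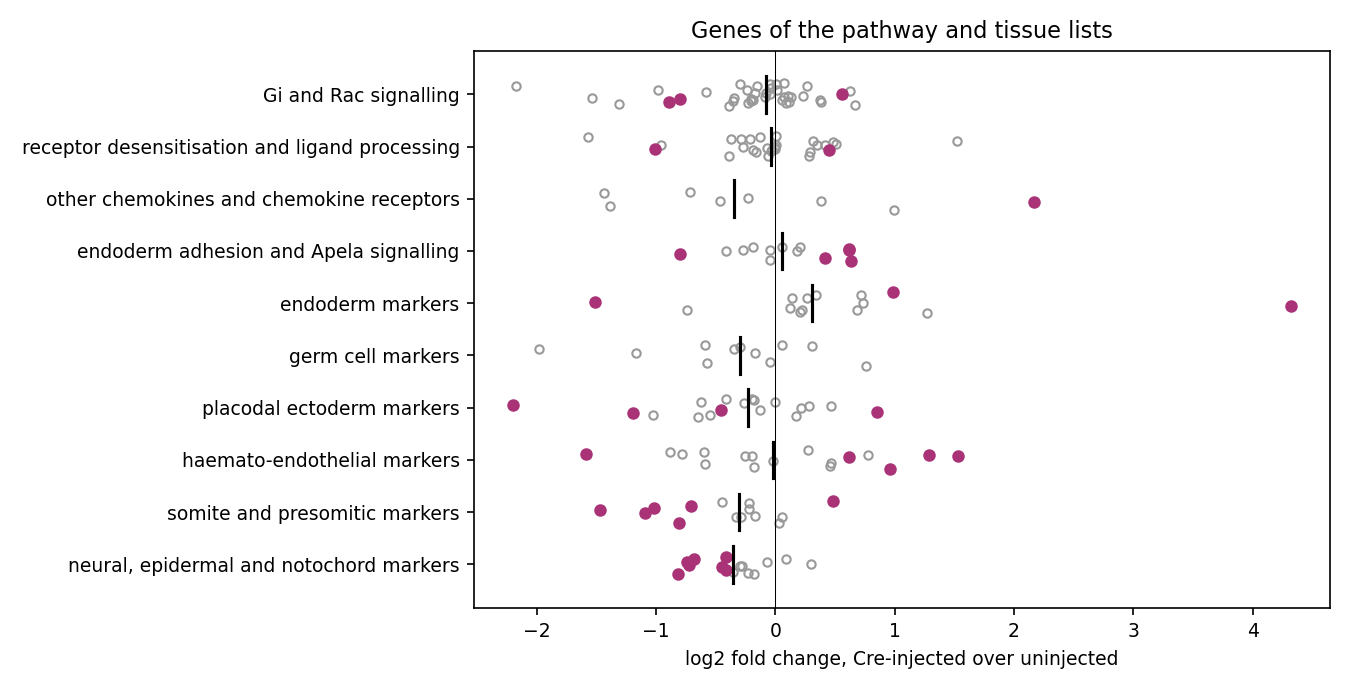
Log2 fold change, Cre-injected over uninjected, of each tested gene (points; purple, adjusted p under 0.05; grey open, not) in the 10 pathway and tissue lists, with the list's median as a black tick; points are spread vertically only to separate them. The lists of somite and of neural, epidermal and notochord markers have medians of -0.31 and -0.35, and the endoderm list has one of 0.31.

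In zebrafish, Cxcl12b and Cxcr4a act on endoderm adhesion through integrin and fibronectin, and Apela, acting on the apelin receptors, also guides mesendoderm. Of 13 tested genes of this list 4 rose and 1 fell, beside shares of 6.35% and 6.19% over all genes. The integrin subunit genes itga5 and itgb1a went from 854 and 819 to 1370 and 1200 and from 627 and 721 to 1121 and 978 normalised reads (0.62 ± 0.12 and 0.64 ± 0.13 (SE) on the log2 scale; adjusted p = 0.00599 and 0.00753 by limma). The fibronectin gene fn1a, for the matrix ligand of that integrin pair, rose from 3233 and 3208 to 5681 and 4296 (0.62, adjusted p = 0.00987 by limma). The other calls, named after their values were seen, were fn1b (0.42) and itgb1b.1, which fell (-0.79). The ligand gene apela and the receptor genes aplnra and aplnrb had log2 fold changes of 0.18, -0.41 and -0.27 and did not pass. The list's median was 0.06. All of its calls ended without either uninjected library, where fewer of all genes passed as well. It had as many calls or more without either Cre-injected library, where more of all genes passed. The calls of fn1b and itgb1b.1 also ended with scaling by library total (adjusted p = 0.0874 and 0.0523 by limma), with equal totals without mitochondrial and ribosomal RNA genes (adjusted p = 0.0699 and 0.0538 by limma) and with non-robust shrinkage (adjusted p = 0.0732 and 0.0749 by limma). That of itgb1b.1 ended with upper-quartile scaling (adjusted p = 0.057 by limma) and without Cre-injected replicate 2 (adjusted p = 0.138 by limma).

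Markers of tissues in which the receptors are used were counted beside these values, and their part in the difference of ackr3b was not tested. In these lists, too, counts stand beside 6.35% of all genes higher and 6.19% lower. Among 14 endoderm markers 2 rose and 1 fell. The endoderm regulator gene sox32 stood at 3 and 0 reads without and 16 and 93 with Cre. It passed the filter on low values only through the Cre-injected libraries, so it could only be higher. The liver regulator gene hnf4a rose (0.99), while the pharyngeal gene nkx2.3 fell (-1.51). The call of sox32 ended when uninjected replicate 2 (adjusted p = 0.0561 by limma) or Cre-injected replicate 2 (adjusted p = 0.145 by limma) was dropped, that of hnf4a without either of the same libraries and with non-robust shrinkage (adjusted p = 0.0631 by limma) or the replicate block (adjusted p = 0.0505 by limma), and that of nkx2.3 without either uninjected library. The summed endoderm markers ranged from 3591 to 3918 in uninjected and from 4414 to 4694 in Cre-injected libraries, with sox32 alone at 0 in a library. Most of each sum came from gata6, gata5, hnf1ba and foxa3, none of which passed the test.

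No germ cell marker of 11 tested passed the test by limma, and none was at 0 in any library. Germ plasm genes were measured at low values: nanos3 had 9 and 9 reads without and 13 and 10 with Cre, ddx4 had 32 and 47 and then 25 and 56, and dnd1 had 12 and 12 and then 6 and 15. The Piwi gene piwil2 had 32 and 23 and then 16 and 2 reads (adjusted p = 0.0942 by limma), ca15b 28 and 20 and then 10 and 10, and tdrd6 124 and 87 and then 73 and 65. The germ cell markers summed to 393 and 337 without Cre and to 247 and 352 with it, so the groups overlapped. Some markers passed, in both directions, without Cre-injected replicate 1, where more of all genes passed than with all libraries.

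Of 18 placodal ectoderm markers, the tissue from which the lateral line primordium forms, 1 rose and 3 fell (6.35% and 6.19% of all genes). The ear placode and kidney gene pax8 rose (0.85), and atoh1a, tfap2a and dlx4b fell (-2.20, -0.46 and -1.19). Reads of atoh1a were few, at 27 and 26 without Cre and 8 and 3 with it. It passed the filter on low values only through the uninjected libraries, so it could only be lower. Reads of dlx4b were 54 and 69 without and 31 and 22 with Cre. The placodal markers summed to 6020 and 6078 reads without Cre and to 5723 and 5438 with it, and none of the markers was at 0. The call of dlx4b also ended without Cre-injected replicate 2 (adjusted p = 0.0574 by limma). All of the list's calls ended without either uninjected library, and more markers passed without either Cre-injected library. Calls over all genes likewise became fewer in the former fits and more in the latter.

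Blood and vessel precursor markers, the tissue that npas4l is known to start, had 4 rises and 1 fall of 17, where 6.35% of all genes rose and 6.19% fell. The rises were those of sox7 (1.53), etv2 (1.29), lmo2 (0.96) and kdr (0.62). The fall was that of spi1b, a regulator gene of myeloid cells, from 55 and 108 to 33 and 19 reads (-1.58, adjusted p = 0.0193 by limma); it ended without uninjected replicate 2 (adjusted p = 0.273 by limma). The red blood cell regulator gene gata1a and the vessel genes tie1, cdh5 and clec14a had values of -0.88, -0.78, -0.59 and -0.60 and did not pass. In the other direction, tal1, tek and egfl7 had values of 0.47, 0.77 and 0.46 and did not pass either. All of these genes, kdr and spi1b were named after their values were seen. The list's median was -0.018, while its summed values were 2951 and 2917 without Cre, and 3788 and 3851 with it. Fewer of its rises were called without uninjected replicate 1, and likewise without uninjected replicate 2, as was so over all genes tested. The call of lmo2 ended without the first, where it was not the only rise lost.

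Somite and muscle markers also held lower genes. Of 14 tested, 5 fell and 1 rose, beside 6.19% and 6.35% of all genes. The 3 of smallest p were the muscle genes tnnc2 (-1.47), myl10 (-1.09) and acta1a (-0.70), and the other falls were those of the segmentation gene mespbb (-1.02) and the actin gene acta1b (-0.80). The rise was that of the presomitic gene msgn1 (0.48), whose call ended with scaling by library total and without either uninjected library. The presomitic genes tbx6 and tbx16, at 0.06 and 0.03, did not pass. All markers of this list together summed to 8892 and 8460 reads without Cre and to 7699 and 6991 with it, and none was at 0. Fewer markers passed without either uninjected library, as was so over all genes tested.

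Of 15 neural, epidermal and notochord markers 7 fell and none rose, where 6.19% of all genes fell and 6.35% rose. Among them were the epidermal genes krt4 and tp63 and the neural and eye regulator gene pax6a. Their log2 fold changes of -0.73, -0.68 and -0.74 were close to the -0.79 of ackr3b. Genes of other lists were as close, such as gng5 (-0.80) and itgb1b.1 (-0.79), so this is not particular to these tissues. All 7 falls were of neural or epidermal genes, and the notochord genes tbxta, noto, shha and col2a1a did not pass. The sums, mostly krt4, were 177673 and 171921 without Cre, and 109303 and 130374 with it, with no marker at 0. Fewer markers passed without either uninjected library and more without either Cre-injected library, as was so over all genes tested.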

How the data were processed

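Total RNA from whole embryos was made into stranded libraries from 10 ng of RNA and read as single ends of 75 bases, per the labels' protocols. The deposited score per gene and library is taken as read counts that the authors had scaled by library and rounded. This reading rests on the values only: whole numbers are skipped or overfilled at regular steps, and the fitted size factors are 1.02, 1.03, 0.983 and 0.985. STAR 2.6.0c, DESeq2 1.14.1, featureCounts 1.6.0, the read trimmer Trimmomatic 0.36, FastQC 0.11.8 and the builds GRCz11 and danRer11 are named without roles, per the submitters' processing notes. For strand assignment, the setting was not given in the sources used here, so reads of a gene and an antisense partner might not be separated.

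The fit was limma 3.58.1 (R 4.3.3), with robust shrinkage and a trend of variance on mean, of log2(value + 1). It took genes that reach 10 in 2 or more libraries, with Benjamini-Hochberg adjusted p under 0.05 as threshold. Changes of genes with few reads are understated on this scale. Replicates are not stated to be separate clutches, so a p-value here measures spread between libraries that may be technical. The 95% intervals of log2 fold changes come from the same fit, rest on the spread between libraries and are not adjusted for the number of genes. Poisson and Wilson intervals treat the values as counts and cover counting error only.

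The members and the 10 lists were chosen with earlier results of these data known. Of 238 list entries 190 were matched and 177 tested. The rule for named genes takes the members, npas4l (matched by identifier), the 3 list members of smallest p, and the 3 genes nearest each member in pattern with a mean of at least 50. Other list genes were named after their values were seen, and neighbours were named by position. Alternatives were other pseudocounts, filters, scalings and non-robust shrinkage, each library left out in turn, and a replicate block. Promoter and protein sequences were not used here. Python 3.11.15, scipy 1.17.1 and matplotlib 3.10.9 were used for the ratios and figures.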

Additional observations from a re-analysis of the deposited data

How the results depend on the processing

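With 2 libraries per group, leaving out 1 takes the group's spread from the other group alone. The counts of higher and lower genes then ranged from 228 to 2064 and from 210 to 1871, against 1064 and 1037 with all libraries. The range of log2 fold changes over these fits was -0.96 to -0.61 for ackr3b, 0.14 to 0.45 for cxcl12a, -0.066 to 0.25 for cxcl12b and -0.51 to 0.26 for cxcr4b. Ratio differences ranged from -0.033 to 0.37 (cxcr4a over cxcl12a), -0.89 to 0.050 (cxcr4b over cxcl12a), -0.76 to 0.32 (cxcr4b over cxcl12b) and -0.069 to 0.47 (cxcl12a over cxcl12b). Genes of like pattern that changed sign had ranges of -0.51 to 0.34 (tradd), -0.55 to 0.16 (adra1d), -0.58 to 0.35 (mt-atp8), -0.062 to 0.25 (klhl20), -0.080 to 0.24 (arl6ip4) and -0.081 to 0.23 (dhcr7). Other named genes whose sign changed had ranges of -0.10 to 0.013 (gnai2a), -0.028 to 0.18 (gnai2b), -0.15 to 0.15 (arrb2a), -0.010 to 0.37 (apela), -0.61 to 0.52 (ddx4), -0.89 to 0.30 (dnd1) and -0.26 to 0.29 (iqca1). Calls per list ranged over these fits from 0 to 9 (Gi and Rac), 0 to 8 (desensitisation), 0 to 1 (other chemokines), 0 to 7 (endoderm adhesion), 0 to 5 (endoderm), 0 to 2 (germ cell), 0 to 8 (placodal), 3 to 7 (blood and vessel), 2 to 8 (somite) and 0 to 11 (neural, epidermal and notochord).

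Under other settings the 5 members and npas4l kept their direction and side of the threshold, while arrb2a turned to -0.014 with scaling by library total and -0.021 with equal totals without mitochondrial and ribosomal RNA genes, and iqca1 to -0.0051 with the latter. The desensitisation list had 4 calls with no filter, 1 with scaling by library total and 4 with the replicate block, against 2. The endoderm adhesion list had 3 with scaling by library total, with equal totals without mitochondrial and ribosomal RNA genes and with non-robust shrinkage, against 5. With a minimum of 50 the endoderm list had 1 against 3 and the other chemokines 0 against 1; by construction fewer genes were then tested. The cause of the other moves was not tested. Same-numbered libraries did not deviate together (correlation of deviations across genes r = -0.03), so the libraries are taken to share only a number, although both replicate 2 libraries held more mitochondrial ribosomal RNA. With the replicate block 1132 genes were higher and 1121 lower, ackr3b had adjusted p = 0.00149 by limma, and 1 germ cell gene passed (piwil2, lower). Depth limits genes with few reads, ackr3a and cxcl18b among them, and gives cxcr4b wide counting intervals.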
